A study of Rattus norvegicus with 2 samples.

Results

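Genes of splicing regulators and other proteins that bind messenger RNA were compared between rat oligodendrocyte cultures with and without depletion of the chaperone HSC70. They were chosen by name: the gene table was searched for the SR proteins (Srsf genes), the hnRNP proteins, and the muscleblind-like, CELF, RBFOX, KHDRBS, PTB, quaking, HuR (Elavl1) and NOVA genes, with pseudogene names left out. This found 53 of the 18049 genes in the table, and 50 of them were measured, which here means an average over both libraries of 1 CPM or more (counts scaled to a common library total), as for 13518 genes in all. The cells were oligodendrocyte precursor cells (OPCs) of wild type rats, taken from the cortex of pups 2 to 4 days old by immunopanning, a selection on antibody-coated dishes. Electroporation delivered either a scrambled siRNA (siSCR) or 1 siRNA that targets Hsc70 (siHsc70), the protein encoded by Hspa8. Both groups then differentiated in medium containing 60 nM T3, a thyroid hormone, and were collected on day 2 of T3 as what the design calls immature oligodendrocytes. Each group is 1 library of total RNA, so the differences below describe a pair of libraries and could not be set against the variation among cultures. The labels do not say how many pups or cultures went into a library.

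Before it is translated, a primary transcript loses its introns to the spliceosome, and these proteins decide which splice sites are used. SR proteins mostly bind exons and recruit the spliceosome through domains rich in arginine and serine. The hnRNP proteins coat nascent transcripts and often oppose SR proteins, while the RBFOX, NOVA, CELF, muscleblind-like and PTB families set splicing programs of particular cell types. In oligodendrocytes quaking proteins stabilise and localise myelin messenger RNAs, and hnRNP A2 carries Mbp messenger RNA into the cell processes. HSC70 itself is a constitutive chaperone, and no member of the gene set encodes a chaperone.

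The libraries held 19085587 (siSCR) and 18130768 (siHsc70) rounded counts. Hspa8 was at 1399 CPM (siSCR) against 507 CPM (siHsc70), which agrees in direction with the labels. Of 12 oligodendrocyte markers all 12 were measured, with a summed level of 10300.2 CPM (siSCR) against 3268 CPM (siHsc70). At least 2-fold lower in siHsc70 were 10 of them. All 8 OPC markers were lower too, 5 by at least 2-fold, with a median of -1.33 (log2 CPM + 1) and summed levels of 3792 and 2201 CPM. Of 16 neuronal markers 15 were measured (1007 and 739 CPM summed), of 9 astrocyte markers 9 (3887 and 3412 CPM), of 9 fibroblast and mural markers 5 (42.7 and 107 CPM), and of 10 microglial markers 2 (5.04 and 9.84 CPM). Cx3cr1, a defining microglial gene, was not found in the table. Gfap, which defines astrocytes, was at 1416 and 667 CPM, although 6 of the 9 astrocyte markers were higher in siHsc70, 3 of them by at least 1.5-fold, with a median of 0.28 (log2 CPM + 1). In bulk RNA of this kind fewer cells of a type and less RNA per cell cannot be told apart, and the part of cell composition in the results below was not tested.

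Most splicing and mRNA-binding genes were somewhat lower in the siHsc70 library, and few were lower by a large factor. Of the 50 measured genes 41 were lower by any amount, 82% of the set, where 50.3% of all measured genes were lower. Their median difference was -0.25 on the log2(CPM + 1) scale (siHsc70 minus siSCR), beside -0.0034 over all measured genes. The summed level of the 50 genes was 8406 CPM (siSCR) against 7036 CPM (siHsc70). At least 2-fold lower, a difference of 1 on this scale, was 1 gene of 50 (2%), Nova1, which is below the 5.14% of all measured genes, and none (0 of 50) passed that rule upwards (background 2.29%). With a 1.5-fold rule 8 genes were lower (16%, background 12%) and 3 were higher (6%, background 9.65%). The 95% exact counting interval of the ratio lay below 1 for 37 genes (74%, background 33.8%) and above 1 for 6 (12%, background 32.5%). It held 1 for 7 (14%, background 33.7%). These intervals come from the reads of both libraries and cover counting error only. They are narrower for genes with more reads, so these shares also depend on the level of the genes.

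With the deposited TPM values, scaled per transcript length, the median of all measured genes was itself -0.13, and every count is to be read against that shift. On that scale 44 of the 50 genes were lower (background 63.2%), the 1.5-fold rule was passed downwards by 13 (26%, background 15.3%) and upwards by 3 (6%, background 6.42%), and the 2-fold rule downwards by 3 (6%, background 5.88%). Relative to the median of all genes under the same scaling, 41 of the 50 genes lay below it both with TPM and with scaled counts. The share of the set was thus above that of all genes for genes lower by any amount. For the 1.5-fold rule downwards it was near that of all genes with scaled counts (16%, background 12%) and above it with TPM. For the 2-fold rule the share of the set was below or near that of all genes, as the cumulative curves show.

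**Figure D1:**
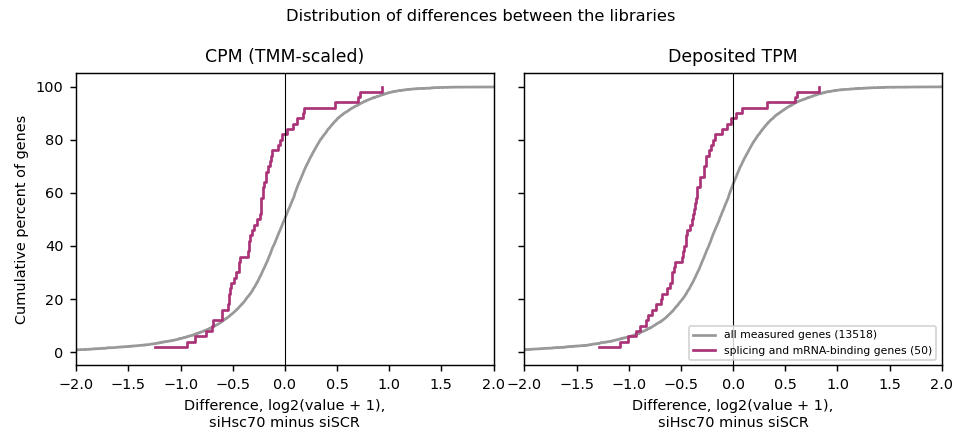
Cumulative percent of genes (y axis) against the log2 difference between siHsc70 and siSCR (x axis), for scaled counts on the left and the deposited TPM on the right, with 1 library per group. The curve of the 50 splicing and mRNA-binding genes lies left of that of the 13518 measured genes around 0, where 41 of 50 are lower on the left and 44 of 50 on the right. At a difference of -1 it is at 2% on the left, beside 5.14% of all measured genes. On the right it is at 6% there, beside 5.88%.

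Per transcript length, hnRNP genes were the most abundant of the set. Hnrnpa2b1, which encodes the hnRNP A2 and B1 proteins, was highest in both libraries, at 763 TPM in siSCR and 545 TPM in siHsc70. Hnrnpk, a poly(C)-binding hnRNP, followed at 495 and 413 TPM. Hnrnpa1 came next in siSCR at 475 TPM, but at 295 TPM in siHsc70 it lay below Hnrnpa3 (351), Hnrnpf (328), Hnrnpl (313) and Hnrnpu (311 TPM). Srsf5 was the most abundant SR gene, at 335 and 290 TPM, and Qk reached 208 and 103 TPM. At the other end Celf4 was lowest in siSCR (4.44 TPM, and 4.06 in siHsc70) and Khdrbs2 in siHsc70 (2.82 TPM, and 4.62 in siSCR). These ranks depend on the transcript lengths used for TPM. In CPM, Hnrnpu was highest at 688 (siSCR) and 587 (siHsc70), and Srsf2 led the SR genes at 307 and 214. The plot of levels shows siHsc70 to the left of siSCR in nearly every family, with Srsf12, Ptbp2, Celf2 and Celf3 as the widest exceptions.

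**Figure D2:**
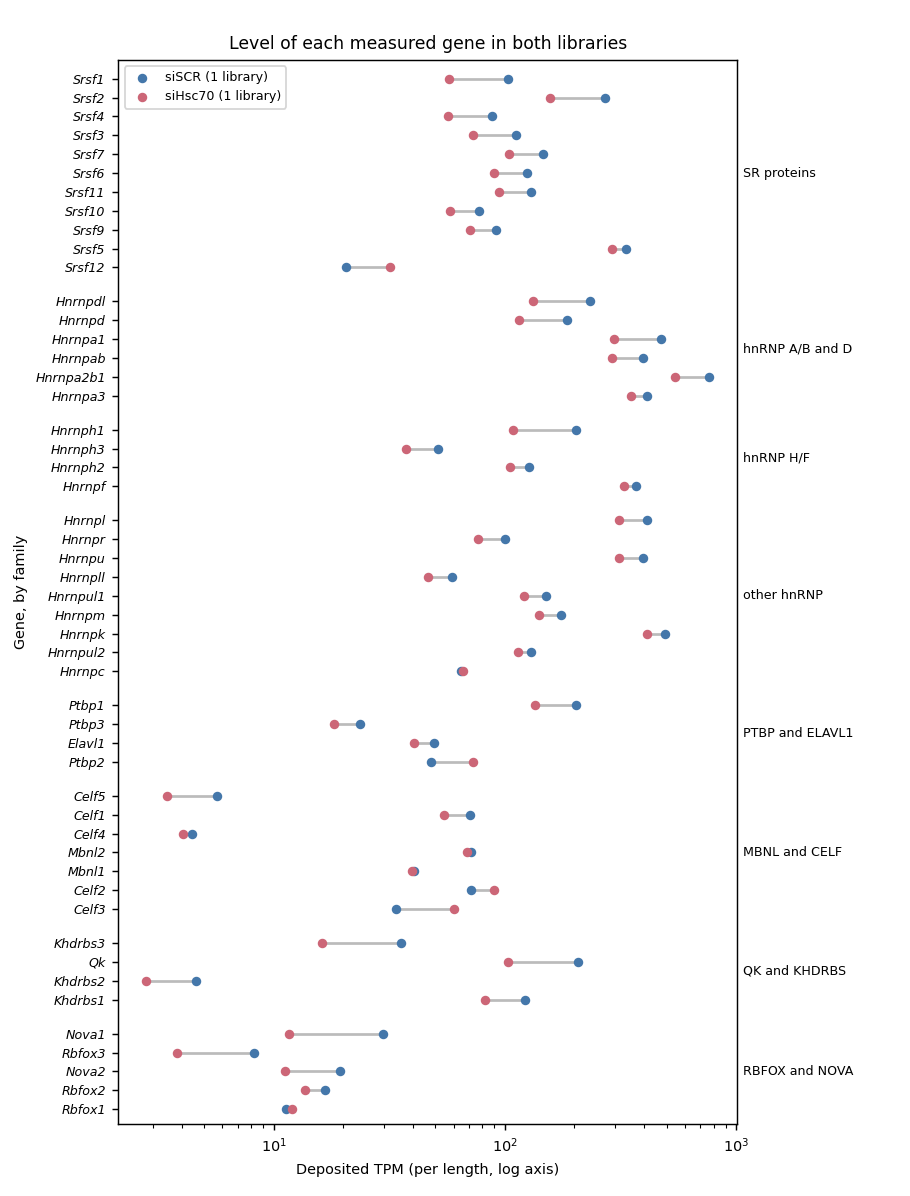
Deposited TPM (x axis, log scale) of each of the 50 measured genes in siSCR (blue) and siHsc70 (red), 1 library each, grouped by family and joined by a grey line. Hnrnpa2b1 is furthest right at 763 and 545 TPM, and 44 of 50 genes have the siHsc70 point to the left.

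Of the SR proteins 11 of 12 genes were measured, and 10 were lower in siHsc70, with a median difference of -0.33 (log2 CPM + 1). For this and the other families, 82% of the set and 50.3% of all measured genes were lower by any amount, as background. Their summed level was 1603 CPM (siSCR) against 1220 CPM (siHsc70). Srsf1, which encodes the founding SR protein SF2/ASF, was at 250.04 CPM (siSCR) against 153 CPM (siHsc70), 1.63-fold lower (95% counting interval 1.56 to 1.71), and was the SR gene furthest below 0. Srsf2 (SC35), a marker of nuclear speckles, was at 307 and 214 CPM, 1.44-fold lower (1.38 to 1.497). Srsf4 was at 90.6 and 64.1 CPM, and Srsf3, the smallest of the classical SR proteins, was at 150.1 and 108 CPM, 1.39-fold lower (1.31 to 1.47). The intervals of Srsf2, Srsf3 and Srsf4 (1.31 to 1.52) overlapped, whereas that of Srsf1, the 1 SR gene past the 1.5-fold rule downwards, lay above all of them.

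The other classical SR genes differed less. Srsf7 and Srsf6 were 1.27-fold (1.18 to 1.36) and 1.26-fold (1.20 to 1.32) lower. Srsf11, Srsf10 and Srsf9 were 1.25-fold (1.18 to 1.32), 1.23-fold (1.15 to 1.31) and 1.18-fold (1.07 to 1.30) lower. Srsf10 encodes a splicing repressor that is dephosphorylated in heat-shocked cells, and it stood at 110 CPM (siSCR) against 89.4 CPM (siHsc70). Srsf5 was at 180 and 172 CPM, a ratio whose interval held 1 (siSCR over siHsc70 0.997 to 1.10). The 1 SR gene that was higher in siHsc70 was Srsf12, an atypical SR gene at low level, with 7.22 CPM (139 counts) in siSCR and 12.4 CPM (223 counts) in siHsc70, a 1.72-fold difference (1.38 to 2.14). Srsf8 did not reach 1 CPM, with 4 counts in siSCR and 13 in siHsc70.

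SR proteins are controlled by phosphorylation, and a list of 22 SR kinases and SR-related genes was set beside them. Of the 21 measured, 18 were lower by any amount (background 50.3%), with a median of -0.30. The 1.5-fold rule was passed downwards by 3 (background 12%) and upwards by 0 (background 9.65%). Prpf4b, which encodes a kinase of the spliceosome, was at 159 CPM (siSCR) against 96.1 CPM (siHsc70), 1.65-fold lower (1.56 to 1.75). Srpk3, a muscle-enriched SR kinase gene, was near the detection limit at 2.55 and 0.334 CPM, the latter from 6 counts. Tra2b, named after its values were seen, encodes an SR-like activator of splicing and was at 169 and 109 CPM. The heat-sensitive kinase gene Clk1, also named after its values were seen, was at 102 and 84.6 CPM. In the same libraries all 14 heat shock response genes of a chosen list were higher in siHsc70, 8 of them by at least 2-fold, and their part in the SR values was not tested.

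**Figure D3:**
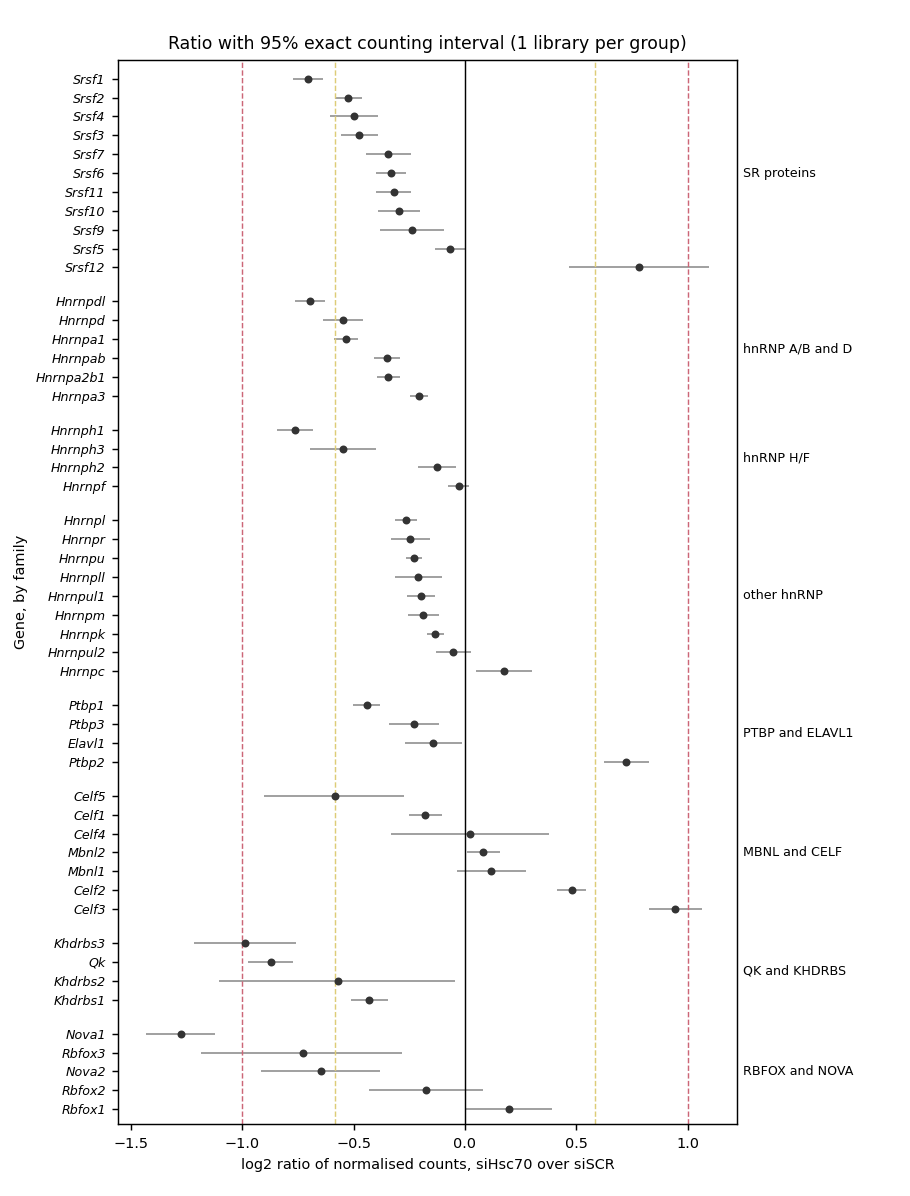
Ratio of scaled counts, siHsc70 over siSCR, on a log2 axis, for each of the 50 measured genes by family, with 95% exact counting intervals as bars (1 library per group). Dashed lines mark 1.5-fold and 2-fold, and only the point of Nova1 lies beyond the 2-fold line among these genes.

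All 6 measured hnRNP A/B and D genes were lower in siHsc70, with a median of -0.44 and summed levels of 2019 CPM (siSCR) against 1538 CPM (siHsc70). Hnrnpdl, which encodes an hnRNP D-like protein, was at 257 and 159 CPM, 1.62-fold lower (1.55 to 1.70). Hnrnpd (AUF1), whose product binds AU-rich elements and promotes decay of messenger RNAs, was at 137 and 93.7 CPM, 1.46-fold lower (1.38 to 1.56). Hnrnpa1, a general splicing repressor, was at 385 and 266 CPM, 1.45-fold lower (1.396 to 1.502). Hnrnpa2b1, the source of the carrier of Mbp messenger RNA, was at 367 and 289 CPM, 1.27-fold lower (1.22 to 1.32). Hnrnpab was lower by nearly the same factor, 1.27-fold (1.23 to 1.33), and Hnrnpa3 by less, 1.16-fold (1.12 to 1.19). The order of Hnrnpd and Hnrnpa1 was not separated by counting error, since their intervals overlapped.

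The hnRNP H and F genes split. Hnrnph1 was at 183 CPM (siSCR) against 108 CPM (siHsc70), 1.70-fold lower (1.60 to 1.79), while its close paralogue Hnrnph2 was at 125 and 115 CPM, 1.09-fold lower (1.03 to 1.16). Hnrnph3 was at 50.5 and 34.6 CPM, 1.46-fold lower (1.32 to 1.62). Hnrnpf, the remaining member of the subfamily, was at 381 and 373 CPM, and its interval held 1 (0.987 to 1.05, siSCR over siHsc70). The ratio of Hnrnph2 to Hnrnph1 counts was 1.55 times as high in siHsc70 as in siSCR (exact interval 1.43 to 1.69), a measure that no scaling of the libraries changes. In TPM that ratio went from 0.627 to 0.963.

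The other hnRNP genes differed little between the libraries, by -0.26 to 0.17 on the log2(CPM + 1) scale. Of 9, 8 were lower, with a median of -0.20, and 0 passed the 1.5-fold rule. The largest difference was in Hnrnpl, which encodes a CA-repeat-binding regulator, at 375 and 312 CPM (1.20-fold lower, 1.16 to 1.24). Its paralogue Hnrnpll was 1.16-fold lower (1.08 to 1.24). Hnrnpu, a scaffold protein of the nuclear matrix and the gene with the highest CPM of the set, was at 688 and 587 CPM, and Hnrnpk at 638 and 581 CPM. Hnrnpr, Hnrnpul1 and Hnrnpm were each between 1.14-fold and 1.19-fold lower. Hnrnpul2 was at 143 and 138 CPM with an interval that held 1. Hnrnpc, which binds uridine tracts and competes with the splicing factor U2AF, was the 1 hnRNP gene higher in siHsc70, at 52.2 and 58.9 CPM (1.13-fold, 1.03 to 1.23).

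Among the PTB proteins the paralogues differed in opposite directions. Ptbp1, the repressor of neuronal exons found in most non-neuronal cells, was at 270.3 CPM (siSCR) against 199 CPM (siHsc70), 1.36-fold lower (1.30 to 1.42). Ptbp2, its paralogue of developing neurons, was at 69.1 CPM and 114 CPM, 1.65-fold higher in siHsc70 (1.54 to 1.77). Per length Ptbp2 was 0.236 times as abundant as Ptbp1 in siSCR and 0.538 times in siHsc70, and the ratio of their counts was 2.24 times as high in siHsc70 (exact interval 2.07 to 2.43). Ptbp3 was at 74.3 and 63.4 CPM, and Elavl1, which encodes the mRNA-stabilising protein HuR, at 56.2 and 50.9 CPM. Ptbp1 protein is known to repress Ptbp2 messenger RNA through a skipped exon, and gene-level counts do not show that exon. The neuronal markers measured in the same libraries went both ways, as 7 of 15 passed the 1.5-fold rule downwards and 3 upwards. Dcx was at 33.2 CPM (siSCR) against 6.23 CPM (siHsc70), whereas Snap25 was at 10.03 and 20.1 CPM.

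The upstream sequences of a pair of SR genes and of Ptbp1 and Ptbp2 are shown because the SR genes and Ptbp1 were lower while Ptbp2 was higher, and that of Hnrnpc because it was higher and holds the most CCAAT boxes of the set. Each line gives the 250 bases before the start of the gene from RefSeq (rat build GRCr8), 5′ to 3′ on the gene's strand, and capitals mark each CCAAT box, written as CCAAT on the gene's strand or as ATTGG where it lies on the other strand.
Srsf1 (chr10:73336248-73336497, + strand): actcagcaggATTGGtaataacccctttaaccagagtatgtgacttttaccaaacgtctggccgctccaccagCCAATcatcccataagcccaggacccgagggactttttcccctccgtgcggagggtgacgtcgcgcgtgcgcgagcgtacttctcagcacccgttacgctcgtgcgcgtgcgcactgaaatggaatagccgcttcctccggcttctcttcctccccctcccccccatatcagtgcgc
Srsf3 (chr20:7093335-7093584, + strand): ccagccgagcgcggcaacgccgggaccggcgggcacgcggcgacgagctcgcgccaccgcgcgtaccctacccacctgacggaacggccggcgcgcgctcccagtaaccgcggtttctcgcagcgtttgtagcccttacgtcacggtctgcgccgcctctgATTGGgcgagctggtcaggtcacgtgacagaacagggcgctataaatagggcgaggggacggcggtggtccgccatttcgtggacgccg
Ptbp1 (chr7:10502958-10503207, - strand): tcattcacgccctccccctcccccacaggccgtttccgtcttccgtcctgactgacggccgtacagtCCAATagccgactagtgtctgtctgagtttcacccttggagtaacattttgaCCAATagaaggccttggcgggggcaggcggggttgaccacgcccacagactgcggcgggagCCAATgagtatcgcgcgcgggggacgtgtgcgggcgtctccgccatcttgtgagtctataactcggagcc
Ptbp2 (chr2:210558278-210558527, - strand): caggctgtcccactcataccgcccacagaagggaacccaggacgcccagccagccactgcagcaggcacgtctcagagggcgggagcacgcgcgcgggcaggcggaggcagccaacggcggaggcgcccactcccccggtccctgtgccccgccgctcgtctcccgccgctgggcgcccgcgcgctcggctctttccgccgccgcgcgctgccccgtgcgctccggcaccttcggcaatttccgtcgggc
Hnrnpc (chr15:27282716-27282965, - strand): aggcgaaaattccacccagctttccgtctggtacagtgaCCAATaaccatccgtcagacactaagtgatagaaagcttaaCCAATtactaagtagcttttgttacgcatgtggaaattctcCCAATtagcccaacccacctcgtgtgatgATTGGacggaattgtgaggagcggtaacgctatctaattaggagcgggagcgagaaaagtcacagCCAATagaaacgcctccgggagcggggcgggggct

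The Ptbp1 sequence holds 3 CCAAT boxes, that of Srsf1 2 and that of Srsf3 1, and that of Ptbp2 holds 0. Boxes were found in genes of both directions: Hnrnpc, higher in siHsc70, holds 5 and Celf3, also higher, holds 1, while the lower genes Qk, Nova1, Hnrnph1, Srsf4 and Srsf6 hold 0. A sequence entry existed for 46 of the 53 genes and for 43 of the 50 measured ones. Of these 43 sequences 23 (53.5%) held CCAAT on either strand, beside 35.3% of 10645 sequences of all measured genes and 34.3% of all 27457 sequences. They were 20 of the 36 genes lower in siHsc70 (55.6%) and 3 of the 7 higher (42.9%). The E-box CACGTG was in 6 of the 43 (14.0%, beside 8.16% of measured genes), the ETS motif CCGGAAG in 6 (14.0%, beside 15.1%), and TATAAA in 5 (11.6%, beside 6.09%). The motif ACAAAG, a form of the SOX site, was in 6 (14.0%, beside 11.5%), and the heat shock half-site pair GAANNTTC in 3 (6.98%, beside 4.71%). Of 9 motifs searched on both strands the remaining 3, those named after the factors NRF1, BANP and YY1, were in 0 of the 43, beside 1.72%, 0.911% and 0.507% of measured genes. The letters of 0 of the 9 motifs lie within another on either strand. Median GC content was 62.8% in these genes and 60.4% in all measured genes. Such matches describe the letters in this window and not the binding of a factor.

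The muscleblind-like and CELF genes were the 1 family in which more genes were higher than lower with scaled counts (5 of 7 measured), and their median was 0.08. With the deposited TPM the median was -0.06, since Celf4, Mbnl1 and Mbnl2 changed sign. Celf3, a brain-enriched CELF gene, was at 47.8 CPM (siSCR) against 91.9 CPM (siHsc70), 1.92-fold higher (1.77 to 2.09), the gene furthest above 0 in the whole set. Celf2 was at 177 and 247 CPM, 1.39-fold higher (1.33 to 1.46), whereas Celf1 was at 176 and 155 CPM, 1.13-fold lower (1.08 to 1.19). The ratio of Celf2 to Celf1 counts was 1.58 times as high in siHsc70 (exact interval 1.47 to 1.69), and in TPM it went from 1.02 to 1.65. Celf5 was at 11.6 and 7.73 CPM, and its interval lay below 1 (siSCR over siHsc70 1.21 to 1.87), with a difference of -0.53 on the log2(CPM + 1) scale.

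Muscleblind-like proteins bind YGCY motifs and drive the change from fetal to adult splice forms. Mbnl2 was at 154 CPM (siSCR) against 163 CPM (siHsc70), and Mbnl1 at 35.1 and 38.1 CPM, where the interval of the ratio held 1 (0.975 to 1.21). The ratio of Mbnl2 to Mbnl1 was similar in both libraries, 1.77 and 1.72 in TPM, with an exact interval for its change of 0.864 to 1.098. Mbnl3 had 1 count in siSCR and 0 in siHsc70, where a count of 0 allows up to 0.167 CPM. Celf4 was at 7.17 and 7.28 CPM, and Celf6 was below 1 CPM with 5 and 9 counts.

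All 4 genes of the quaking and KHDRBS group were lower in siHsc70, where 82% of the whole set was lower. Their median was -0.65, and it was -0.86 with a minimum mean of 5 CPM, which leaves out Khdrbs2. Qk (Qki in current nomenclature), whose loss of expression in oligodendrocytes causes the quaking dysmyelination of mice, was at 121 CPM (siSCR) against 66.0 CPM (siHsc70), 1.83-fold lower (1.71 to 1.96). Khdrbs3, which encodes the STAR protein SLM2, was at 25.6 and 12.9 CPM, 1.98-fold lower (1.69 to 2.33). Khdrbs1, which encodes the ubiquitous SAM68, was at 150.4 and 112 CPM, 1.35-fold lower (1.27 to 1.43). Khdrbs2 was at 4.21 and 2.84 CPM, 1.48-fold lower with a wide interval (1.03 to 2.15) that reflects 81 and 51 counts. With the deposited TPM Qk and Khdrbs3 were past 2-fold, at 208 and 103 TPM and at 35.5 and 16.2 TPM. Oligodendrocyte markers were lower in the same library, as given above, and their part in the Qk value was not tested.

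The RBFOX and NOVA genes, best known from neurons, were at 24.6 CPM or less in both libraries except Nova1, and 4 of 5 were lower in siHsc70. Nova1, which binds YCAY motifs, was at 64.8 CPM (siSCR) against 26.7 CPM (siHsc70), 2.42-fold lower (2.18 to 2.70). Nova2 was at 16.1 and 10.3 CPM, 1.57-fold lower (1.30 to 1.89), and the neuronal marker Rbfox3 (NeuN) was at 6.08 and 3.67 CPM, 1.66-fold lower (1.22 to 2.28). Rbfox2 was at 14.6 and 12.9 CPM, and Rbfox1 at 21.5 and 24.6 CPM, and both intervals held 1. The Rbfox1 to Rbfox3 count ratio was 1.90 times as high in siHsc70 (exact interval 1.35 to 2.68). The paralogue pairs described here were chosen after their values were seen. Neuronal markers, with Rbfox3 1 of that list, were lower in 8 of 15 and higher in 7, with a median of -0.15 (log2 CPM + 1), and most of the gap in their sum came from Map2 (526 and 340 CPM), and their part in these values was not tested.

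The deposited counts and FPKM values also give, for each gene, the transcript length that the authors' quantification implies in each library (count divided by FPKM and by the library total). This length can differ between libraries where reads were assigned to transcripts of a different mean length. The quantification program is not known, so whether that was so here was not tested. For genes with 1 FPKM or more in both libraries, the length moved by at least 5% in 4 of 50 members (8%) and in 5.32% of 12036 genes. It was shorter in siHsc70 in 2 of the 50 (4%, background 2.82%) and longer in 2 (4%, background 2.49%), and it moved by less than 1% in 34 members (68%, background 77.1%). Hnrnph3 went from 2072 bases in siSCR to 1761 in siHsc70, 15.0% shorter, so that its TPM, at 51.2 and 37.4, differed less than its count. Hnrnpa3 went from 2919 to 2692 bases, 7.76% shorter. Srsf2 went from 2389 to 2586 bases, 8.24% longer, and its TPM, at 270 and 157, differed more than its count. Rbfox3 went from 1556 to 1820 bases, 17.0% longer, from only 117 and 66 counts. The next in size were Nova1, 4.04% shorter, and Celf1, 3.50% longer. The 5% rule was chosen after the data had been seen, and no error can be given for these lengths. The files do not name the transcripts involved.

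**Figure D4:**
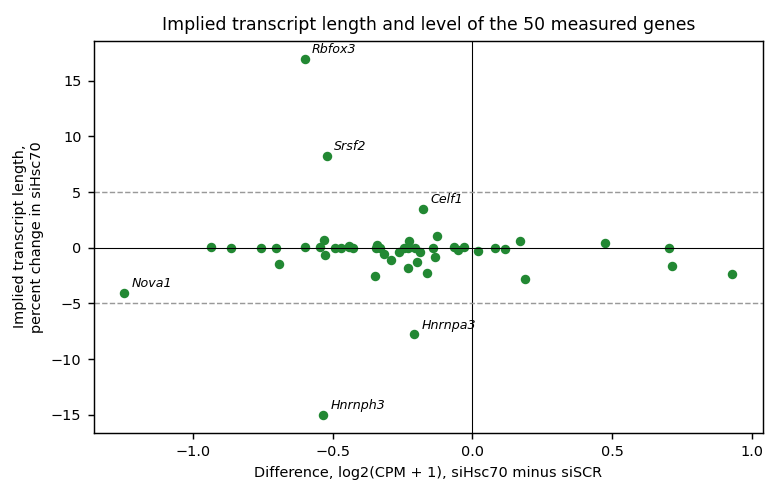
Percent change of the implied transcript length in siHsc70 (y axis) against the log2 difference in level (x axis) for the 50 measured genes, with dashed lines at 5% in either direction. Hnrnph3 and Hnrnpa3 lie below the lower line and Srsf2 and Rbfox3 above the upper one, while 34 genes lie within 1% of 0.

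Some of these counts may rest on shared reads. In 13 of the 50 measured genes (26%, background 30.8%) the estimated count was not whole in 1 or both libraries. Reads divided among genes can give such counts, but the program that made them is not named, so their origin is not known. Hnrnph3, Hnrnpa3, Srsf2, Hnrnpa1 and Qk were among them. In RefSeq's GRCr8 annotation 10 members overlap another gene of the table in span, and the strand setting of the counts is not given in the sources used here. Srsf1 overlaps Vezf1, which was at 179 and 128 CPM, and Hnrnpdl overlaps Enoph1, at 134 and 70.2 CPM, so that the values of these genes are uncertain to the extent that reads were exchanged. Hnrnph3 overlaps Rufy2, which was at 22.6 and 21.9 CPM.

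The core of the spliceosome and other RNA-binding proteins were taken from lists of genes. As background for these lists, 50.3% of all measured genes were lower by any amount. The 1.5-fold rule was passed by 12% downwards and 9.65% upwards. Among 26 measured Sm, U1 and U2 protein genes 18 were lower by any amount, with a median of -0.09, and 1 passed the 1.5-fold rule, Snrpg, higher at 19.8 against 10.1 CPM. Among 28 genes of the U4/U6 and U5 particles and of spliceosomal helicases the median was -0.05. The 1 past 1.5-fold was Ddx46, a helicase gene of the early spliceosome, at 112 CPM (siSCR) against 68.3 CPM (siHsc70). Among 22 genes of the Prp19 complex and the exon junction complex 11 were lower and 11 higher, the median was -0.05, and Pnn, which encodes an SR-rich protein of the junction complex, was at 177 and 106 CPM. In these 3 core lists 0 genes passed the 2-fold rule in either direction, beside 5.14% lower and 2.29% higher in all measured genes.

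Medians closer to that of the SR and hnRNP genes were seen in regulators outside the core. Of 12 genes of paraspeckle and related proteins 11 were lower, 3 by at least 1.5-fold, with a median of -0.33. Pspc1, a paraspeckle component, was at 42.8 CPM (siSCR) against 21.5 CPM (siHsc70), 1.99-fold lower (1.76 to 2.25). Of 35 measured RBM and other regulator genes 27 were lower, with a median of -0.25. Rbmx, the X-linked hnRNP G gene, was 2.11-fold lower (1.93 to 2.30), at 84.1 and 39.9 CPM. Rbm11 was 1.92-fold higher (1.47 to 2.50) from 4.73 CPM. Of 41 genes of mRNA transport, stability and translation 28 were lower, around a median of -0.06. The 1.5-fold rule was passed downwards by 6 (background 12%) and upwards by 2 (background 9.65%). Elavl3, a neuronal HuR-like gene that is also on the list of neuronal markers, was furthest below 0, at 62.5 CPM (siSCR) against 21.5 CPM (siHsc70), and was the 1 gene of the list past 2-fold downwards. Pcbp4 was at 307 and 183 CPM, and Igf2bp1, an oncofetal mRNA-binding protein gene, was at 3.79 and 8.62 CPM. With the deposited TPM all 7 of these lists, SR kinases included, had medians below 0, from -0.46 to -0.18, beside -0.13 for all genes.

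**Figure D5:**
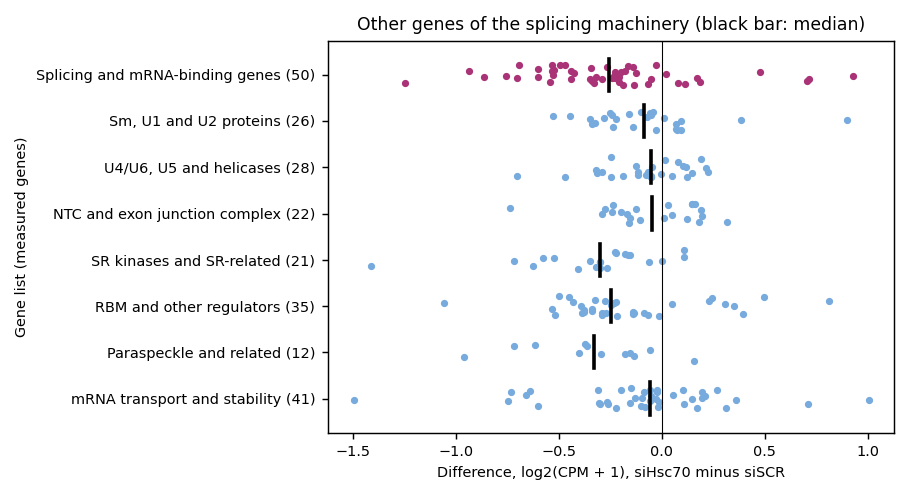
Log2 difference between the libraries (x axis) for each measured gene of the set (top row) and of 7 lists of the splicing machinery and mRNA-binding proteins, 1 point per gene with a black bar at the median. Medians of the 3 core lists lie between -0.09 and -0.05, and those of the SR-related, RBM and paraspeckle lists between -0.33 and -0.25.

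Messenger RNAs known to be spliced, stabilised or carried by these proteins in oligodendrocytes were lower in siHsc70 in all 7 genes of a short list, 5 of them by at least 2-fold (background 5.14%). The other two, Cdkn1b and Map1b, differed by -0.24 and -0.06 on the log2(CPM + 1) scale, no more than the median of the splicing genes. Mbp, a cargo of hnRNP A2 and a target of quaking, was at 1968 CPM (siSCR) against 414 CPM (siHsc70). These genes are also markers of the oligodendrocyte stage. The 12 genes of cycling cells were all lower as well, with a median of -0.79 and 415.6 against 256 CPM in sum, and the part of cell division in the values of the splicing genes was not tested.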

How the data were processed

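The deposited table holds 6 columns of values for 2 samples. Estimated counts per gene were deposited by the authors without normalisation, per the file headers. The deposited FPKM values are scaled by length and library size, and the deposited TPM values are per length and scaled to a common sum, per the file headers. No source used here gives the aligner, the quantification program, the annotation or whether strand was used. A mouse build, mm39, is listed in the submitters' processing notes although the gene identifiers are rat, so that only RefSeq's own coordinates (GRCr8) are printed.

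Estimated counts were rounded, scaled with the TMM factors of edgeR 4.0.16 (1.01 for siSCR, 0.992 for siHsc70) in R 4.3.3 and expressed as CPM. Differences are log2(CPM + 1), a pseudocount of 1 that understates changes of low genes, over genes averaging 1 CPM or more. Ratios are without pseudocount, with 95% exact (Clopper-Pearson) intervals, and ratios of paralogue pairs have exact conditional intervals. Both cover counting error only, as do the 0.156 and 0.167 CPM that 3 counts, the limit of a count of 0, correspond to. With 1 library per group no test was made. The members, gene lists and rules of size were chosen with earlier results of these data known. Every member could be named. From other lists the 2 higher and 2 lower genes furthest from 0 past 1.5-fold were named (or the 1 furthest where none passed), with Hspa8 and defining markers; a few of these are not reported here. Genes under a LOC name took their RefSeq symbol for lists only. The procedure was run on simulated counts that held counting error only. That checks the calculation and says nothing about variation among cultures.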

Additional observations from a re-analysis of the deposited data

How the results depend on the processing

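No paired analysis was possible because each group has 1 library, and for the same reason no library could be left out. Under the 10 alternatives run, the median of the measured genes stayed below 0, between -0.39 (deposited TPM) and -0.19 (upper-quartile scaling), and between 39 and 44 genes were lower wherever all 50 were measured; with a minimum mean of 5 CPM it was 39 of 48, and with no minimum 42 of 53. Under each setting the 2-fold rule gave 0 higher genes. With the deposited TPM the 2-fold rule gave 3 lower genes and the 1.5-fold rule 13, against 1 and 8, and the median of the other hnRNP genes was -0.32 against -0.20. These moves come with the shift of all genes to -0.13. For Hspa8 the difference of -1.46 became -1.40 with upper-quartile factors and -1.60 with TPM. Single genes left their counting interval in 36 of 50 cases with TPM, all downwards, in 11 with upper-quartile scaling, all upwards, and in 4 with the deposited FPKM; 0 genes past 1.5-fold reversed. With upper-quartile scaling 6 of the 50 genes passed the 1.5-fold rule downwards, beside 10.6% of all measured genes. The alternatives for implied length were added after seeing the data: 3 genes moved with a minimum of 5 FPKM, where Rbfox3 was not included, and 4 with lengths from TPM. At these depths counting error is small for most members, and the interval of the ratio held 1 for Celf4, Mbnl1, Rbfox1, Rbfox2, Srsf5, Hnrnpul2 and Hnrnpf.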

Other observations

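Hnrnpa0, an intronless hnRNP gene deposited under a LOC name and so outside the set, was at 215 CPM (siSCR) against 186 CPM (siHsc70), 0.865 times the siSCR level (95% counting interval 0.826 to 0.905), close to the 0.866 times of Hnrnpa3. Hnrnpcl1, also deposited under a LOC name, had 2 and 5 counts.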
